A study of Xenopus tropicalis x Xenopus laevis and Xenopus tropicalis with 6 samples.

Results

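The paternal genome of the allotetraploid frog *Xenopus laevis* carries many genes as a pair of homeologs, an L copy on a long chromosome and an S copy on its short counterpart, and both copies were followed in embryos that received this genome from sperm. The hybrids, made with sperm of *X. laevis* on *X. tropicalis* eggs, were collected as whole embryos 7 hours after fertilization (hpf), with 3 libraries called 40, 41 and 42. *X. tropicalis* embryos of the same age, 3 libraries called 37, 38 and 39, carry no *X. laevis* genome and served as the background for reads counted on *X. laevis* features. Only polyA RNA was sequenced, so all groups share that selection, and no allele or agent is named for either group. Of 27182 *X. laevis* features, 9188 were named as L copies, 6867 as S copies and 11127 as neither. A pair was made where one name had 1 L and 1 S feature on the L and S chromosomes of the same number. This gave 4688 pairs out of 4712 with matching names, and the other 24 lay on chromosomes of unlike number. The pairs held 47.4%, 46.6% and 46.7% of the *X. laevis* counts in hybrids 40, 41 and 42.

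*X. laevis* arose by hybridization of a pair of diploid frog species, and the L and S subgenomes are what remains of their chromosome sets. Homeologs of a pair encode closely related proteins, and in normal *X. laevis* the copies of a pair can be used at different levels or at different stages. The diploid *X. tropicalis* has one orthologue for each such pair. At gastrulation the embryo has begun to transcribe its own genome, so RNA from a sperm-derived chromosome reports on paternal copies that are present and active. The series title names loss of paternal chromosomes in the hybrid, and comparing L with S inside each hybrid library asks which paternal copies were read out.

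For each copy the net level was its CPM (counts scaled to a common library total over all features of both species) in a hybrid library minus its mean CPM in the *X. tropicalis* libraries, with negative results set to 0. A pair was tested where L plus S had a mean net level of at least 1 CPM and where the *X. tropicalis* libraries gave at most 10% of the hybrid level. In all, 2047 pairs passed, 1269 were below the level, of which 11 had no count in any hybrid, and 1372 had the level but too much background. Pairs on chromosomes 3 and 4 passed less often, 177 of 501 (35.3%) and 176 of 501 (35.1%), against 1694 of 3686 (46.0%) on the other 7. Because the level is that of L plus S, a pair with a low L copy passed only through its S copy, which bears on every count below. Levels are counts without division by length, since no feature lengths were used here, so a difference between copies mixes level with the length of each model. Reads shared by both copies or both species may lie on either feature, and strand use in counting is not given in the sources used here.

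Library totals ran from 71435751 to 88526278 counts in the hybrids and from 90144765 to 100025277 in *X. tropicalis*. Of 17 listed genes of the gastrula embryo, 16 were found as *X. tropicalis* features and all 16 had at least 1 CPM in each of the 6 libraries. Their summed level was lower in hybrids, 2037 to 2801 CPM, than in *X. tropicalis*, 4167 to 4247 CPM. These sums count *X. tropicalis* features alone, and hybrids received that genome only from the egg, so the groups are not alike in this measure. Most of these genes were lower in hybrids, but *foxi1* was higher, at 57.9 to 65.8 CPM against 22.0 to 32.2 CPM. *grhl1* overlapped between groups, at 181 to 199 CPM in hybrids and 178 to 212 CPM in *X. tropicalis*. Of 12 genes of later differentiated tissues, 7 were found, 4 stayed under 1 CPM in every library, and their summed level was 0.776 to 4.07 CPM in hybrids and 0.170 to 1.43 CPM in *X. tropicalis*. In these whole embryos, fewer cells carrying a copy and less RNA from it per cell cannot be told apart.

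On chromosomes 3 and 4 the L copies were far below the S copies, and on the other chromosomes both were near parity. The median log2 ratio of L to S over the tested pairs of chromosome 3 was -3.31, -3.93 and -3.71 in hybrids 40, 41 and 42 (mean -3.65 ± 0.31, SD, n = 3), a typical S level 12.5 times that of L. On chromosome 4 it was -2.79, -2.99 and -3.18 (mean -2.99 ± 0.20), or 7.94 times. On the other 7 chromosomes together it was 0.16, 0.12 and 0.11 (mean 0.13 ± 0.025). All ratios had 0.1 CPM added to both copies, which understates the difference where 1 copy is near 0.

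Taken within each library, the chromosome 3 median minus that of the other chromosomes was -3.78 ± 0.29, and the chromosome 4 difference was -3.12 ± 0.17. Both differences had the same sign in 3 of 3 libraries. The exact two-sided sign-flip permutation test gave p = 0.25 for each, the smallest value that 3 libraries allow. No single chromosome outside 3 and 4 came near these values. The lowest was chromosome 5 at -0.32 ± 0.086 and the highest chromosome 8 at 0.58 ± 0.12, and the library values of these did not overlap each other or those of chromosomes 3 and 4.

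**Figure D1:**
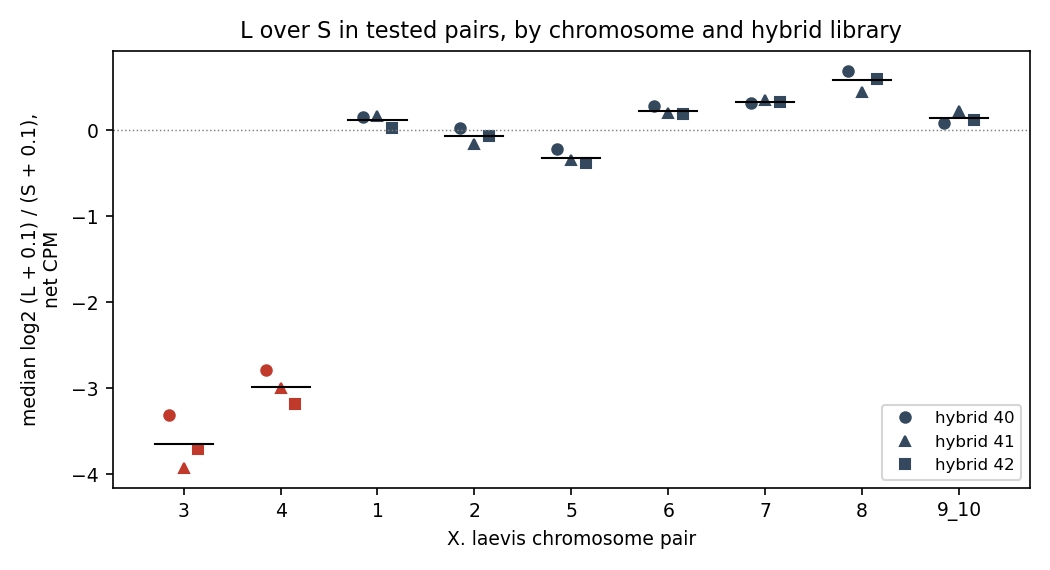
Median log2 ratio of L to S net CPM over tested pairs for each chromosome pair, 1 point per hybrid library and a bar at the mean. The 3 libraries sit between -3.93 and -2.79 on chromosomes 3 and 4, and the means of the other chromosomes between -0.32 and 0.58.

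Summed levels also set chromosomes 3 and 4 below the others, but the order of chromosomes 3 and 4 between themselves was not fixed. The L copies of all chromosome 3 pairs made up 24.4%, 26% and 24.0% of the net L plus S level in hybrids 40, 41 and 42 (24.8% ± 1.03). On chromosome 4 the L share was 27.7%, 24.9% and 24.6% (25.7% ± 1.70). On the other chromosomes it was 53.8%, 53.1% and 53.4% (53.4% ± 0.355), and single chromosomes ran from 49.7% ± 1.11 on chromosome 1 to 60.3% ± 0.083 on chromosome 8. The sums include pairs with high background. Over tested pairs only, an alternative added once the data had been seen, the L share was 21.2% on chromosome 3 and 19.3% on chromosome 4.

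Copy by copy, S exceeded L in all 3 libraries for 134 of 177 tested pairs on chromosome 3 (75.7%) and 123 of 176 on chromosome 4 (69.9%), against 598 of 1694 elsewhere (35.3%). L exceeded S in all 3 libraries for 24, 15 and 680 pairs. An L copy with a mean net level under 0.1 CPM was found in 52 pairs of chromosome 3 (29.4%) and 36 of chromosome 4 (20.5%), against 56 pairs elsewhere (3.31%). An S copy that low was found in 4, 1 and 68 pairs. L gave at most 5% of the pair in 81 chromosome 3 pairs and 66 chromosome 4 pairs, against 116 pairs elsewhere.

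**Figure D2:**
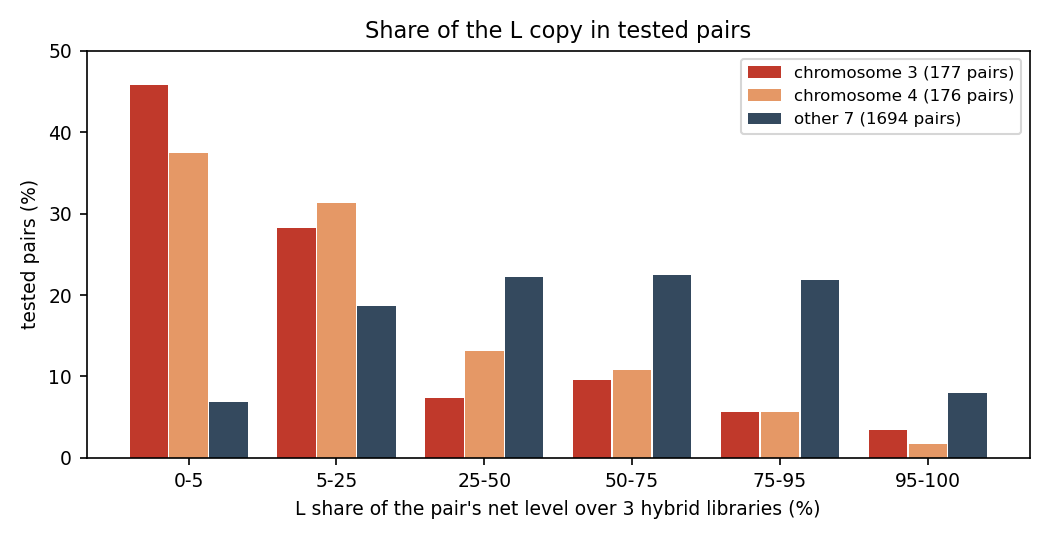
Share of the L copy in the net level of each tested pair, summed over the 3 hybrid libraries, as the percentage of tested pairs in 6 classes. The class of 0 to 5% holds 45.8% of chromosome 3 pairs and 37.5% of chromosome 4 pairs, against 6.85% of pairs on the other 7 chromosomes.

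The edgeR quasi-likelihood test of L against S within libraries, adjusted over all 2047 tested pairs at 0.05, called L higher in 237 pairs (11.6%) and S higher in 267 (13%). Outside chromosomes 3 and 4, it called L higher in 231 pairs (13.6%) and S higher in 172 (10.2%). On chromosome 3 it called L higher in 4 pairs (2.26%) and S higher in 55 (31.1%). On chromosome 4 it called L higher in 2 pairs (1.14%) and S higher in 40 (22.7%). At an unadjusted p under 0.05 the counts over all pairs were 400 for L and 481 for S. The test used counts without the background subtraction, so its p-values do not test the net levels. In 0 called pairs did the mean net log2 ratio have the other sign.

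These counts depend on the test and on single libraries, while the direction on chromosomes 3 and 4 did not turn. DESeq2 called L and S higher in 15 and 119 pairs of chromosome 3, in 13 and 110 of chromosome 4, and in 504 and 442 of the others. Without hybrid 40, edgeR called 2 and 29 on chromosome 3, 0 and 19 on chromosome 4, and 111 and 73 elsewhere. Without hybrid 41 the counts were 1 and 18, 1 and 20, and 114 and 66. Without hybrid 42 they were 2 and 44, 4 and 36, and 176 and 123.

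Among the pairs of chromosome 3 with the highest levels, 4 of 5 were carried almost wholly by the S copy. *prickle1*, a planar cell polarity gene used in gastrulation movements, had 0.857, 2.87 and 2.54 net CPM on L in hybrids 40, 41 and 42, against 300, 270 and 272 on S. *btg1*, which encodes an antiproliferative factor, had 2.05, 1.1 and 2.73 on L, against 250, 320 and 256 on S. The lowest S value of either gene was many times its highest L value. The mean log2 ratios were -7.16 ± 0.98 for *prickle1* and -7.14 ± 0.82 for *btg1* (edgeR adjusted p 0.0018 and 0.0012). *lrig3*, encoding a leucine-rich membrane protein, had 4.97, 0.923 and 4.62 on L, against 126, 116 and 105 on S. *pfkfb3*, encoding a regulator of glycolysis, had 3.92, 0.00463 and 1.84 on L, against 89.7, 80.6 and 97.9 on S. The copies of both genes lay apart in every library. The edgeR adjusted p of *lrig3* was 0.0061 and that of *pfkfb3* 0.04, and the call of *pfkfb3* was lost without hybrid 40 (adjusted p 0.079) or hybrid 42 (0.083).

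The exception was *ccng1*, which encodes cyclin G and is a known target of p53. It had 341, 346 and 299 net CPM on L, against 25.9, 17.2 and 15.2 on S. Here L was the high copy in all 3 libraries (mean log2 ratio 4.11 ± 0.34, edgeR adjusted p 0.00071). The other 3 chromosome 3 pairs called with L higher were low in level. *cnot8*, a subunit of the deadenylase complex that shortens mRNA tails, had 14.3, 14.4 and 15.5 on L, against 0.315, 0 and 0 on S. *ube2b*, encoding a ubiquitin-conjugating enzyme, had 6.24, 9.25 and 10.6 on L, against 1.53, 2.16 and 2 on S. *loxl2*, encoding a collagen-crosslinking oxidase, had 1.83, 11.1 and 5.26 on L, against 0, 0.113 and 0 on S. Their L and S values did not overlap, but these calls were fragile. Without hybrid 40 the edgeR adjusted p was 0.110 for *ube2b* and 0.065 for *loxl2*, and without hybrid 41 it was 0.107 for *cnot8* and 0.162 for *ube2b*. Without hybrid 42 it was 0.059 for *cnot8* and 0.111 for *ube2b*, and without hybrid 41 *loxl2* was not tested. The *X. tropicalis* libraries gave 0.631 CPM on *loxl2* L. This background was 9.39% of the hybrid level of the pair, just inside the limit of 10%.

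On chromosome 4 the leading pair was *foxa4*, encoding a forkhead factor of the organizer and notochord. It had 21.4, 25.3 and 5.38 net CPM on L, against 193, 153 and 128 on S (mean log2 ratio -3.44 ± 1.01, edgeR adjusted p 0.0076). *ptgs2*, encoding a prostaglandin-forming cyclooxygenase, had 26.6, 21.1 and 20.5 on L, against 106, 131 and 103 on S (-2.32 ± 0.32, adjusted p 0.0021). These L copies were low but well above 0 in every library. *sec61a1*, encoding the channel that passes proteins into the endoplasmic reticulum, had 2.29, 0.759 and 0.554 on L, against 43.7, 48.8 and 54.9 on S. *znf326*, a zinc finger gene, had 0.577, 0 and 0.0285 on L, against 40.5, 43.4 and 55.6 on S. Both were called (edgeR adjusted p 0.0044 and 0.012), with L near 0.

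*sall1*, encoding a zinc finger transcription factor, departed from this on chromosome 4. It had 83.2, 97.2 and 107 net CPM on L, against 69.0, 59.9 and 75.3 on S. L was the higher copy in every library, by a mean log2 ratio of 0.49 ± 0.21, which did not pass the test (edgeR adjusted p 0.064). The pairs called with L higher were *fam83f* and *bcl10*, an adaptor gene of NF-kB signalling. *fam83f* had 10.2, 12.4 and 11.3 on L, against 0, 0.226 and 0 on S (edgeR adjusted p 0.026). *bcl10* had 8.06, 9.34 and 14.8 on L, against 0, 0 and 0.608 on S (adjusted p 0.043). The S copies were near 0 in these pairs. Without hybrid 40 the adjusted p was 0.082 for *fam83f* and 0.127 for *bcl10*, and without hybrid 41 it was 0.139 for *bcl10*. The *X. tropicalis* libraries gave 0.780 CPM on *fam83f* L and 0.896 CPM on *bcl10* L. Background of L plus S was 6.42% and 7.75% of the hybrid level of these pairs.

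**Figure D3:**
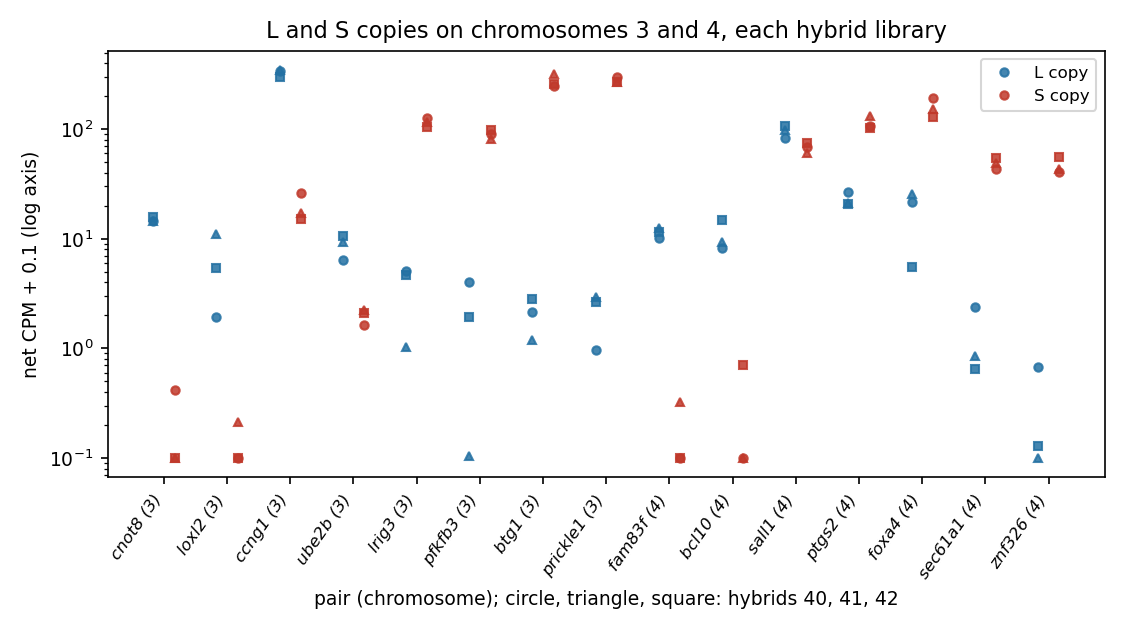
Net CPM plus 0.1 on a log axis for the L (left, blue) and S (right, red) copies of 15 named pairs of chromosomes 3 and 4, 1 point per hybrid library. S points lie above L points for 8 pairs, and L points lie above S points for *cnot8*, *loxl2*, *ccng1*, *ube2b*, *fam83f*, *bcl10* and *sall1*.

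The difference on chromosomes 3 and 4 ran across gene groups. The gene lists were made from gene names or from the starts of gene names, so a list can hold genes of other functions. Of 13 lists of genes, each had a negative median log2 ratio among its chromosome 3 and 4 members, from -5.58 in ribosomal protein genes (4 tested) to -1.02 in proteasome subunit genes (2 tested), beside -3.47 over all 353 tested pairs there. The medians of the same lists on the other chromosomes ran from -1.30 to 1.16, beside 0.15 over all 1694. In the lists, the test called L higher in 1 and S higher in 31 of 70 tested members on chromosomes 3 and 4, beside 6 (1.7%) and 95 (26.9%) of all 353 tested pairs there. The 1 pair called L higher was *ccng1*.

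The splicing list had the most called members there. Of 9 tested members on chromosomes 3 and 4, 0 were called L higher and 5 S higher. The shares over all 353 tested pairs there were 1.7% and 26.9%. On the other chromosomes 2 of 14 were called L higher and 6 S higher, beside 13.6% and 10.2% of all 1694 tested pairs. *sf3b2*, encoding a splicing factor of the spliceosome core, averaged 0.947 ± 0.450 net CPM on L and 23.2 ± 2.01 on S (n = 3). *hnrnph1*, encoding an RNA-binding splicing regulator, averaged 0 on L and 28.2 ± 9.79 on S. Of 4 ribosomal protein pairs, *rps13* averaged 0.591 ± 0.347 on L and 40.4 ± 12.2 on S, and *rps16* 0.130 ± 0.191 on L and 12.5 ± 3.76 on S. *eif3j-like* and *eif3s4*, named for a translation initiation complex, were the 2 of 4 tested translation factors there with a call, both with S higher. All of these passed the edgeR test, with adjusted p from 0.0019 to 0.039.

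In the list of gastrula transcription factors, 2 of 5 tested members on chromosomes 3 and 4 were called, *foxa4* and *foxi1*, both with S higher, the second an ectodermal forkhead factor that averaged 1.29 ± 1.06 net CPM on L and 20.9 ± 4.95 on S. In the list of secreted signals, their antagonists and feedback genes, 3 of 6 were called, all with S higher. Over all 353 tested pairs of chromosomes 3 and 4, 1.7% were called L higher and 26.9% S higher. *dusp6*, encoding a phosphatase that damps FGF signalling, averaged 0.503 ± 0.655 on L and 24.2 ± 1.67 on S. *fgf3*, a ligand of that pathway, averaged 0.045 ± 0.078 on L and 11.7 ± 3.84 on S. *aldh1a2*, which encodes a retinoic acid synthesis enzyme, averaged 0.665 ± 0.609 on L and 26.9 ± 5.88 on S. Their edgeR adjusted p were 0.011, 0.024 and 0.025.

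In the list of p53 targets and DNA damage genes, 6 members on chromosomes 3 and 4 were tested, 1 called L higher and 3 S higher. The shares called over all 353 tested pairs there were 1.7% and 26.9%. Beside *btg1* and *ccng1*, *mdm2*, encoding the ubiquitin ligase that degrades p53, averaged 4.46 ± 2.43 net CPM on L and 76.0 ± 13.9 on S, and *plk3*, a stress-responsive kinase gene, 0.356 ± 0.323 on L and 11.1 ± 4.33 on S (edgeR adjusted p 0.0076 and 0.038). Beside that 26.9% for S, 3 of 11 pairs of the cell cycle list there were called, all with S higher. They were the cyclin genes *ccne1*, with 2.05 ± 0.631 on L and 33.8 ± 10.04 on S, *ccnb2*, with 0.860 ± 1.48 on L and 41.5 ± 7.07 on S, and *ccnb1.2*, with 1.72 ± 1.70 on L and 19.3 ± 8.43 on S. Of 27 tested members of that list on the other chromosomes, 8 were called L higher and 0 S higher. The shares over all tested pairs there were 13.6% and 10.2%. The list was made mostly from the starts of names and also took in *cdc42ep* genes and *cdkn2aip*. The last was among the 8 called L higher. *ccne2*, a second cyclin E gene, on chromosome 6, averaged 229 ± 18.8 on L and 30.7 ± 3.28 on S. L thus led in *ccne2* and S in *ccne1*, which lies on chromosome 4, where S exceeded L in most tested pairs. Gene and chromosome cannot be told apart in this contrast.

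In the remaining lists on chromosomes 3 and 4, the test called S higher in 4 of 8 zinc finger pairs. It did so in 3 of 6 adhesion and cytoskeleton pairs and 2 of 4 metabolic pairs. The counts were 1 of 3 chromatin pairs, 1 of 2 oxidative phosphorylation pairs and 0 of 2 proteasome pairs. L was called higher in none of them. Over all 353 tested pairs there, 1.7% were called L higher and 26.9% S higher. No list was tested against these shares. The 2 uncalled proteasome pairs had a median log2 ratio of -1.02. *cdh3*, encoding a cadherin of the early embryo, averaged 0.723 ± 0.936 net CPM on L and 15.4 ± 1.75 on S. *dnmt1*, encoding the maintenance DNA methyltransferase, averaged 0.00843 ± 0.00743 on L and 2.999 ± 0.721 on S. *idh2*, encoding a mitochondrial isocitrate dehydrogenase, averaged 0.238 ± 0.403 on L and 7.37 ± 2.19 on S. The edgeR adjusted p of these were 0.021, 0.028 and 0.047.

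The low L copies were spread over nearly the whole of chromosomes 3 and 4 when pairs were put in the order of the number in the L copy's model name. The sources do not say that this number follows map position. The numbers of the L and S copies ran in near parallel on 7 of 9 chromosomes (Spearman correlation of at least 0.959, a description over pairs), but not on chromosome 3 (-0.30) or chromosome 8 (0.19). In the 5 equal parts of chromosome 4 by this order, the mean of the library medians was -1.98, -2.61, -4.24, -2.92 and -2.06. On chromosome 3 it was -1.83, -4.52, -4.05, -3.89 and -2.81. The middle parts were the lowest on chromosome 4, and the first part stood above the rest on chromosome 3.

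The first part of chromosome 3 held a run of pairs whose L copy was the higher one. The run, which ends at *ccng1*, was chosen after its values were seen, so its counts are a description and have no test. It held 53 pairs, of which 14 were tested. Their median log2 ratio of L to S was 1.90, 1.62 and 2.13 in hybrids 40, 41 and 42 (1.88 ± 0.26), and the mean ratio was positive in 12 of 14. After *ccng1*, 163 of 448 pairs were tested, with medians of -3.51, -4.05 and -3.95 (-3.84 ± 0.29), and the mean ratio was positive in 19. In the run the test called L higher in 3 pairs, *ube2b*, *cnot8* and *ccng1*, and S higher in 0, while after it L was called in 1 pair, *loxl2*, and S in 55. The L share of the summed level was 82.9% ± 0.417 up to *ccng1*, which carries most of that sum, and 15.5% ± 1.43 after it.

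Uncalled members of the run mostly leaned to L as well, but the run was chosen from these same values, so this is no separate support. *rnf145*, encoding a RING-domain membrane protein, had 1.04, 4.92 and 3.72 net CPM on L, against 0.025, 0 and 0 on S (edgeR adjusted p 0.053). *ndst1*, encoding a heparan sulfate modifying enzyme, had 4.61, 7.45 and 7.36 on L, against 2.80, 1.84 and 1.88 on S (adjusted p 0.131). *cdx1*, a posterior homeobox gene, had 4.55, 3.47 and 5.84 on L, against 1.47, 0 and 2.1 on S (adjusted p 0.292). L was above S in each library for all 3 genes, though none passed. The pairs against this were *kiaa0141* and the protocadherin gene *pcdh12*, with mean log2 ratios of -2.88 ± 1.97 and -4.37 ± 0.80. When pairs of any background were admitted, 34 pairs of the run had the level and L was higher in 25. Their median was 1.19 ± 0.42, against -3.16 ± 0.16 over 294 pairs after the run. The 34 include the 14 tested pairs from which the run was chosen, 12 of them with L higher, so this count is a description too.

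The order of numbers also differed between the run and the pairs after it. It was compared only on each side of *ccng1*, so the place where it changed was not located. Within the run, L and S numbers ran in parallel (Spearman correlation 0.94 over 53 pairs), and after it they ran in opposite order (-0.82 over 448 pairs). Of the 53 S copies, 51 had numbers below those of all later S copies. The run therefore lay at the low end of both number series.

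**Figure D4:**
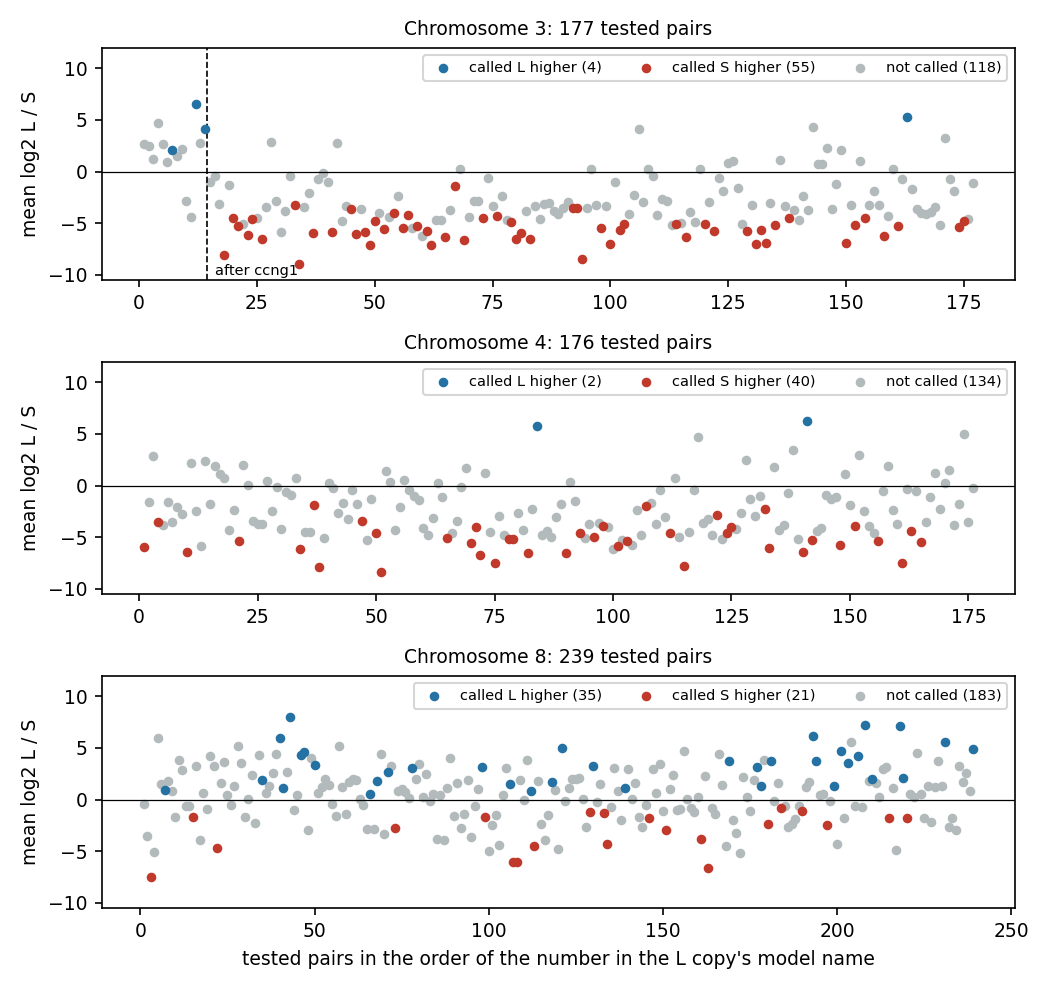
Mean log2 ratio of L to S net CPM for each tested pair on chromosomes 3, 4 and 8, in the order of the number in the L copy's model name, coloured by the edgeR call. On chromosome 3 most of the 14 points up to *ccng1* (dashed line) lie above 0 and most of the 163 after it below 0, chromosome 4 has 40 pairs called S and 2 called L along its length, and chromosome 8, the chromosome with the highest median, has 21 called S and 35 called L.

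The *X. tropicalis* feature of the same name served as a reference scale for the L and S copies within each hybrid library. It counts RNA of that species from any source, including any stored in the egg. This compares counts between species without length. It was done for tested pairs whose orthologue had at least 1 CPM, 164 on chromosome 3, 157 on chromosome 4 and 1477 elsewhere. The median orthologue level itself was 108 ± 3.28 CPM for chromosome 3 and 96.8 ± 6.05 CPM for chromosome 4, against 79.3 ± 2.91 CPM elsewhere. The reference thus differed between chromosomes, which bears on small differences in these ratios. The median log2 ratio of L to the orthologue was -7.91 ± 0.20 on chromosome 3 and -7.21 ± 0.20 on chromosome 4, against -4.25 ± 0.19 elsewhere. The median for S was -4.38 ± 0.27 on chromosome 3 and -4.18 ± 0.22 on chromosome 4, against -4.40 ± 0.20 elsewhere. In tested pairs and relative to their orthologues, the S copies of chromosomes 3 and 4 stood at about the level of other S copies. The L copies stood far below other L copies.

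The S copies of chromosomes 3 and 4 differed from those elsewhere by 0.065, 0.25 and 0.11 on the log2 scale in hybrids 40, 41 and 42 (0.14 ± 0.097, exact sign-flip permutation p = 0.25, the smallest possible). The sign of this difference turned with the filter on level. It was -0.13 with no filter, -0.07 with a minimum of 0.2 CPM, and 0.32 with a minimum of 5 CPM. With every pair that had an orthologue of at least 1 CPM, an alternative chosen after seeing the data, it was -0.24. A pair with a low L copy needs a high S copy to be tested, so these data do not fix whether the S copies were higher or lower there. L plus S together stood at -4.08 ± 0.27 on chromosome 3 and -3.85 ± 0.16 on chromosome 4, against -3.03 ± 0.18 elsewhere.

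The run up to *ccng1* was also put on this scale. The scale uses the same L and S values that chose the run, so part of any difference follows from that choice. Over 11 pairs with an orthologue, L stood at -4.36 ± 0.095 and S at -6.46 ± 0.45. Over 153 pairs after it, L stood at -8.23 ± 0.13 and S at -4.28 ± 0.31. In these tested pairs of the run, the S copies stood below the level of other S copies. A pair with a low S copy passed the filter only through its L copy, which bears on this. With 11 pairs chosen after their values were seen, this is a description.

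**Figure D5:**
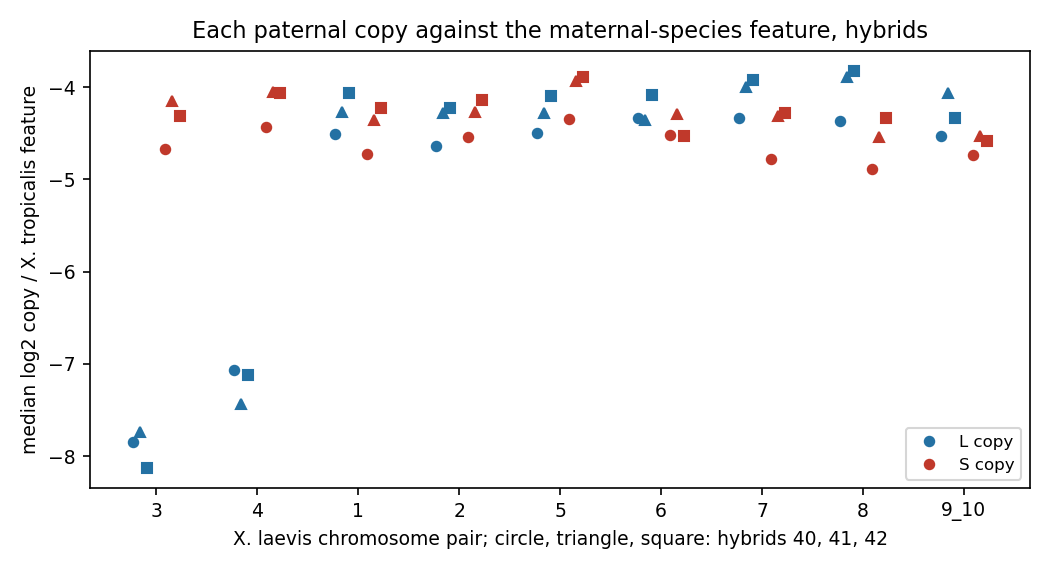
Median log2 ratio of the L (left, blue) and S (right, red) copies to the *X. tropicalis* feature of the same name, for each chromosome pair and hybrid library. L lies between -8.13 and -7.07 on chromosomes 3 and 4 and above -4.7 on all others, and S lies between -4.89 and -3.89 on all 9.

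Pairs left out for background showed a smaller difference of the same sign on chromosomes 3 and 4. Over 151 such pairs on chromosome 3 and 171 on chromosome 4, the median net log2 ratio of L to S was -1.01 ± 0.066 and -0.89 ± 0.20, against 0.00051 ± 0.00089 over 1050 pairs elsewhere. The library medians elsewhere were 0, 0.0015 and 0. A pair with both net values set to 0 has a ratio of 0, so this median is not a measure of parity. Without subtraction it was -0.021 ± 0.097, -0.36 ± 0.059 and 0.25 ± 0.030. In the *X. tropicalis* libraries themselves, where no paternal copy exists, the medians for the same pairs were 1.05, 0.70 and 0.33, so reads of *X. tropicalis* origin fell more on L than on S features.

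Outside chromosomes 3 and 4, parity of the medians covered wide differences within pairs. The mean ratio differed by more than 2-fold in 1195 of 1694 tested pairs (70.5%), with L ahead in 634 and S ahead in 561. The test called L higher in 231 and S higher in 172, as given above. The pairs with the highest levels had both kinds. *hmgb3*, encoding a chromatin-associated HMG-box protein, on chromosome 8, had 715, 765 and 839 net CPM on L, against 32.7, 28.7 and 33.0 on S (mean log2 ratio 4.61 ± 0.15, edgeR adjusted p 0.00024). *ficd*, encoding an endoplasmic reticulum enzyme that modifies the chaperone BiP, on chromosome 1, had 4.93, 6.35 and 0 on L, against 1104, 1310 and 1045 on S (adjusted p 0.00071). One pair was thus led by L and the other by S, and both were called at every omission of a hybrid library where they were tested, *ficd* being untested without hybrid 41. The *X. tropicalis* libraries gave 10.6 CPM on *ficd* L and 109 CPM on *ficd* S. This background was 9.39% of the hybrid level of the pair, just inside the limit of 10%. The net L level of *ficd* rests on that subtraction.

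Other high pairs used both copies. *cirbp*, encoding a cold-inducible RNA-binding protein, had 751, 744 and 874 net CPM on L, against 498, 595 and 644 on S. *aplnr*, the apelin receptor gene of migrating mesoderm, had 629, 601 and 662 on L, against 311, 356 and 309 on S. *anp32c*, encoding an acidic nuclear phosphoprotein of the family that binds histones, had 226, 206 and 249 on L, against 685, 582 and 747 on S. The 3 genes had non-overlapping copies and mean log2 ratios of 0.45 ± 0.14, 0.96 ± 0.18 and -1.56 ± 0.05 (edgeR adjusted p 0.021, 0.0044 and 0.00087). A pair named only by a model number, Xetrov90019679m on chromosome 8, had 524, 573 and 714 on L, against 281, 280 and 385 on S (adjusted p 0.002). Without hybrid 42 the call of *cirbp* was lost (adjusted p 0.090).

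Several pairs outside chromosomes 3 and 4 were read out almost wholly from L. *traf4*, encoding a signalling adaptor, on chromosome 2, had 327, 297 and 304 net CPM on L, against 1.95, 3.95 and 4.5 on S. *apln*, the apelin ligand gene, on chromosome 8, had 54.0, 70.2 and 60.4 on L, against 0.172, 0.400 and 0 on S. So the ligand gene was at or near 0 on S in all libraries, while its receptor gene was high on both copies. *gad1.2*, encoding an enzyme that makes the transmitter GABA, on chromosome 6, had 60.2, 73.6 and 95.8 on L, against 0, 0.374 and 0 on S. *fam214b*, *prcc*, *rnf168* (a ubiquitin ligase gene of DNA break repair) and *rcc1* (the exchange factor gene for Ran) followed, with mean log2 ratios from 6.28 ± 1.72 to 7.70 ± 0.15. All of these were called, with edgeR adjusted p from 0.00096 to 0.038. Without hybrid 41 the calls of *prcc* (adjusted p 0.124), *rnf168* (0.066) and *rcc1* (0.104) were lost, without hybrid 40 those of *apln* (0.053) and *gad1.2* (0.053), and without hybrid 42 that of *prcc* (0.073).

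Other pairs were read out almost wholly from S. *wfs1*, encoding a membrane protein of the endoplasmic reticulum, on chromosome 1, had 0.00945, 0 and 0 net CPM on L, against 63.1, 62.7 and 61.9 on S, so S was the only copy with more than trace counts. In counts over the hybrids this was 1 on L and 14810 on S, a ratio whose 95% exact binomial interval runs from 2658 to 585003. *ddx23*, a spliceosomal helicase gene, *slc26a9*, an anion transporter gene, and *cluh*, whose product binds mRNAs of mitochondrial proteins, all on chromosome 2, had 0 counts on L in every hybrid library. Against a floor of 3 counts over the group, their net S counts were at least 2350-fold, 2151-fold and 1994-fold higher, for *ddx23* after 2.93 CPM of background on S was subtracted. These bounds cover counting error only.

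*pdk4*, encoding a kinase that holds back pyruvate dehydrogenase, on chromosome 6, had 0.887, 0.219 and 0 net CPM on L, against 94.0, 90.3 and 107 on S. *fut1*, a fucosyltransferase gene, on chromosome 7, had 0.294, 0 and 0 on L, against 34.6, 42.6 and 51.1 on S. *tril*, encoding a leucine-rich membrane protein, on chromosome 6, had 0, 1.87 and 0.502 on L, against 71.1, 67.0 and 49.8 on S. The S copy was far above L in each library, and all were called (edgeR adjusted p 0.013, 0.025 and 0.0017). The *X. tropicalis* libraries gave 4.72 CPM on *tril* L. From counts without subtraction the edgeR log2 ratio of *tril* was -3.53, while the mean net log2 ratio was -6.98 ± 2.25. Without hybrid 41 the adjusted p was 0.071 for *pdk4* and 0.090 for *fut1*.

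Among gastrula transcription factors outside chromosomes 3 and 4, 6 of 28 tested pairs were called L higher and 6 S higher. The shares over all 1694 tested pairs there were 13.6% and 10.2%. Calls on both sides thus occurred in this list as among all pairs. The list was called more often on each side, which was not tested. Called shares also depended on level, for which the lists were not matched. In the endoderm group, *mix1* averaged 103 ± 4.32 net CPM on L and 19.8 ± 5.68 on S, *mixer* 172 ± 53.4 on L and 66.4 ± 11.6 on S, and *sox17a* 17.3 ± 6.99 on L and 45.2 ± 7.80 on S. In the T-box group, *t*, which encodes Brachyury, averaged 3.54 ± 1.21 on L and 68.1 ± 2.71 on S, and *eomes* 46.0 ± 1.48 on L and 152 ± 18.3 on S. *foxh1*, encoding a DNA-binding partner of Smads in Nodal signalling, averaged 4.68 ± 0.698 on L and 0.0152 ± 0.0204 on S. *gmnn*, encoding geminin, averaged 82.4 ± 13.5 on L and 175 ± 38.6 on S. The edgeR adjusted p of these were from 0.0019 to 0.04. Without hybrid 40 or 41 the call of *mixer* was lost (adjusted p 0.096 and 0.140).

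Signals and antagonists outside chromosomes 3 and 4 had 4 of 20 tested pairs called for L and 5 for S. Over all 1694 tested pairs there, the shares were 13.6% and 10.2%. *lefty*, a Nodal antagonist gene, averaged 33.5 ± 4.22 net CPM on L and 7.27 ± 2.64 on S, and *bmp7.1*, a BMP ligand gene, 8.95 ± 4.26 on L and 1.21 ± 0.758 on S. *sfrp2* and *frzb*, both encoding secreted Wnt antagonists, were the other way, with 48.3 ± 9.28 and 32.1 ± 12.3 on L against 139 ± 6.82 and 61.7 ± 16.5 on S. *cxcr4*, a chemokine receptor gene, had 135, 101 and 95.7 on L, against 95.9, 88.2 and 87.6 on S, and did not pass (edgeR adjusted p 0.18). The called pairs had adjusted p from 0.0044 to 0.031.

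In housekeeping groups outside chromosomes 3 and 4, the test called 2 of 19 ribosomal protein pairs, both S higher, and 0 of 13 proteasome pairs. Of 12 oxidative phosphorylation pairs 1 was called S higher. Over all 1694 tested pairs there, 13.6% were called L higher and 10.2% S higher. The highest ribosomal pair there, *rps3a*, had 5.61, 6.92 and 10.5 net CPM on L, against 10.4, 15.3 and 17.8 on S (edgeR adjusted p 0.087). The proteasome ATPase gene *psmc6* had 8.43, 4.04 and 4.25 on L, against 4.39, 6.40 and 5.08 on S (adjusted p 1). The copies of *rps3a* nearly separated and those of *psmc6* overlapped. *psmc5*, of the same ATPase ring, had a mean log2 ratio of 0.41 ± 1.01, and *cox7c*, a respiratory chain subunit gene, 4.33 ± 2.37, without a call (adjusted p 0.64 and 0.083). *atp5b*, an ATP synthase subunit gene, was called with S higher (11.2 ± 3.37 on L and 25.8 ± 9.40 on S, adjusted p 0.047), and lost the call when any hybrid library was left out, with adjusted p up to 0.174.

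Among splicing genes outside chromosomes 3 and 4, *srsf2*, an SR splicing factor gene on chromosome 9_10, had 484, 565 and 510 net CPM on L, against 71.8, 104 and 88.2 on S, and *srsf5*, another SR factor gene, had 183, 154 and 221 on L, against 426, 350 and 445 on S. The 2 SR genes thus leaned to opposite copies in every library (edgeR adjusted p 0.00071 and 0.0025). Of 17 translation factor pairs, 5 were called L higher and 2 S higher, beside 13.6% and 10.2% of all 1694 tested pairs there. *eif5a* averaged 75.04 ± 5.75 on L and 4.14 ± 1.19 on S, and the elongation factor gene *eef2.1* 65.2 ± 6.45 on L and 36.2 ± 3.76 on S (adjusted p 0.0016 and 0.017). The call of *eef2.1* was lost without hybrid 40 (adjusted p 0.070), 41 (0.087) or 42 (0.052).

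In the p53 list outside chromosomes 3 and 4, 2 of 5 pairs were called L higher and 2 S higher. Over all 1694 tested pairs there, the shares were 13.6% and 10.2%. *cdkn1a*, encoding a cyclin-dependent kinase inhibitor, averaged 64.2 ± 5.86 net CPM on L and 20.7 ± 3.37 on S. The sestrin genes, whose products restrain TOR signalling under stress, were on opposite sides, with *sesn2* at 78.8 ± 10.2 on L and 11.9 ± 0.976 on S and *sesn1* at 27.4 ± 2.91 on L and 61.2 ± 11.3 on S. The edgeR adjusted p were 0.0056, 0.0014 and 0.014.

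Chromatin genes outside chromosomes 3 and 4 had 4 of 20 pairs called L higher and 3 called S higher. Adhesion and cytoskeleton genes there had 3 of 28 called L higher and 9 called S higher. Over all 1694 tested pairs there, 13.6% were called L higher and 10.2% S higher. *epcam*, encoding an epithelial adhesion molecule, had 93.4, 93.8 and 106 net CPM on L, against 222, 289 and 298 on S. *marcksl1*, encoding an actin-associated membrane protein, had 155, 145 and 124 on L, against 400, 572 and 487 on S. *cldn4*, a tight junction gene, averaged 111 ± 23.2 on L and 13.9 ± 5.47 on S. The calls (edgeR adjusted p 0.0019 to 0.0029) went to S in the first pair of genes and to L in *cldn4*. Zinc finger genes had 2 of 29 called L higher and 3 called S higher. Their highest pair, *znf750*, had near equal copies at 78.0, 84.0 and 87.4 on L, against 68.5, 73.8 and 83.7 on S (edgeR adjusted p 0.4). *znf638* leaned to S without a call (-0.59 ± 0.16, adjusted p 0.071).

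How often a pair was called depended on its level, and the gene lists above were not matched for level. In the lowest of 3 equal classes of level, 1 to 3.72 CPM, 2.2% of pairs were called, in the middle class 15.1%, and in the highest, from 11.4 CPM, 56.6%. The sign of the ratio was the same in all 3 libraries for 62.5%, 80.8% and 87.4% of these pairs. Of the 4094 copies in tested pairs, 432 (10.6%) had 0 counts in one hybrid library and at least 50 in another. Such copies varied between libraries far beyond counting error, and a low pair without a call says little about its copies. Across pairs, the log2 ratios of hybrids 40 and 41, 40 and 42, and 41 and 42 had Pearson r of 0.84, 0.78 and 0.81, as a description over 2047 pairs that share background libraries.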

How the data were processed

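RNA of whole embryos was selected for polyA and sequenced, per the labels' protocols. BWA 0.7.10 is named in the submitters' processing notes, while for the counting program, gene models, genome builds and strand the setting is not given in the sources used here. The authors deposited raw counts per feature for both species in 1 table of 45244 features, which was used without change. The deposited sums by human gene name were not used. The series text calls the replicates biological. Groups came from the labels, and replicate numbers are not shared between groups.

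L and S features were paired by name and chromosome. Net CPM used library totals of 71435751 to 100025277 counts. For each pair, edgeR 4.0.16 under R 4.3.3 compared the L with the S counts by its quasi-likelihood F test, with library and copy as terms, the library total for both copies and Benjamini-Hochberg adjustment over 2047 pairs. The common biological coefficient of variation was 0.954. DESeq2 1.42.0 and limma 3.58.1 on log2 net ratios were alternatives, with other filters, background limits, pseudocounts, scalings and omitted libraries. The code was tested on simulated data. Errors are SD over libraries. The named pairs are the 6 highest, the 8 most L-led and 8 most S-led called pairs of at least 20 CPM outside chromosomes 3 and 4, the 5 highest and up to 4 L-led on each of those 2, and the 2 highest of each list. One pair that this rule names is not reported here. Called members of lists and members of the *ccng1* run were also named, after their values were seen. The pairs and lists were chosen with earlier results of these data known. No reference sequence was used, so no sequence, length or coordinate is given.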

Additional observations from a re-analysis of the deposited data

How the results depend on the processing

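The differences of the chromosome 3 and 4 medians from the others kept their sign under every alternative run. That of chromosome 3 ran from -4.96 to -2.42 and that of chromosome 4 from -3.90 to -2.01. DESeq2 called 532 pairs L higher and 671 S higher, limma 445 and 581, and edgeR without a limit on background 444 and 441. Limma shared 451 calls in direction with the main test and lost the call of 8 named pairs. Leaving out 1 library gave 113 (hybrid 40) to 243 pairs for L and 104 (hybrid 41) to 269 for S. The median outside chromosomes 3 and 4 was 0.061 and 0.16 with minimum levels of 0.2 and 5 CPM, 0.050 with none and 0.065 without a background limit, and 0.097 to 0.17 when a library was left out. Summed L shares without subtraction were 36.6%, 35.7% and 54.6% for chromosomes 3, 4 and the others. With names that are gene symbols alone they were 23.3% for chromosome 4 and 52.6% for the others. Added after seeing the data, keeping negative values gave 20.2% and 21.4%, and tested pairs alone 21.2% and 19.3%, for chromosomes 3 and 4. The S difference against the orthologue was 0.045 with a pseudocount of 0.5 CPM, -0.0738, -0.13 and 0.32 with minimum levels of 0.2, none and 5 CPM, and -0.24 with every orthologue of at least 1 CPM. The causes were not tested. Dropping the library term (no replicate block) called 316 and 380 pairs. Division by length was not run, since no lengths were given. Of 47 named calls, 18 were lost without 1 of the hybrid libraries. Low pairs and lengths limit what single pairs show.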
